A study of Mus musculus with 2 samples.

Results

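The interferon system of the adult mouse thymus was described through 50 genes chosen by name: 2 interferon ligands, the 4 receptor chains for interferon alpha, beta and gamma, 9 transcription factors of the STAT and IRF families, 4 sensors of foreign nucleic acid, and 31 genes that interferon induces or that shape the response. Of these, 48 were found by gene ID among the 43346 genes of the deposited tables, and 46 were detected, that is, had a mean of at least 1 TPM. TPM is an abundance per transcript length, scaled to the same total in each library, so levels can be compared between genes. The study measured polyadenylated RNA in 2 libraries of whole thymus, named biological replicates 1 and 2 and called library 1 and library 2 here. Both came from C57BL/6J mice aged 8 weeks, with male and female littermates pooled, and no treatment, genotype or control group is labelled. The libraries form 1 group, so the design holds no comparison between conditions. Each library has its own biosample, yet both list the same donor entry. Although they are named biological replicates, whether they came from separate animals is not stated, so the spread between them may be technical.

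Interferons are secreted proteins that warn cells of infection. Type I interferons (alpha and beta) and type II interferon (gamma) bind receptors of paired chains, which activate JAK kinases and STAT factors. After type I interferon, a complex of STAT factors with IRF9 binds the interferon-stimulated response element (ISRE), whereas interferon gamma acts through STAT dimers that bind the gamma-activated sequence (GAS). In the thymus, plasmacytoid dendritic cells and medullary epithelial cells are known sources of steady interferon, and interferon signals are known to act on developing thymocytes.

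Library 1 held 49.3 M and library 2 held 63.1 M estimated fragments, of which members took 0.271% and 0.299% of the fragments on genes. All 7 thymocyte markers were detected, with a summed level of 3655 TPM in library 1 and 3689 TPM in library 2. The near-equal sums hide moves in both directions. Of the 7, 5 were lower in library 2, such as Cd3e (355 and 254 TPM), and 2 were higher, such as Lck (1327 and 1454 TPM). Over 11 lists of cell type markers (58 genes), no gene was listed at 0 in either library. The macrophage, cortical epithelial and medullary epithelial lists were higher in library 2 in all of their genes (8 of 8, 5 of 5 and 6 of 6), as were 44.1% of all detected genes. The differences ran from slight, as in Mertk (2.55 and 2.58 TPM) and Fezf2 (16.6 and 16.9 TPM), to that of Ctsl (132 and 229 TPM). The neutrophil list was lower in library 2 in 4 of 4 genes and the fat list in 3 of 4. In bulk tissue, fewer cells of a type and less RNA per cell cannot be told apart.

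Promoters of members often held the core of the ISRE (GAAA, then any 2 bases, then GAAA), and sequences are shown to make that core visible. RefSeq's promoter table for GRCm38.p6 held a sequence for 40 of the 50 members. Usp18, Rtp4, Mx1, Mx2, Zbp1, Oas2, Gbp4, Gbp6, Ifi27 and Dhx58 had no entry. The ISRE core stood on either strand in the 250 bases before the start in 14 of 40 members (35.0%), and in 936 of 27025 genes of the table (3.46%). The GAS core, TTCNNNGAA, stood there in 11 of 40 members (27.5%) and in 8.13% of all genes. A gene with more than 1 promoter was counted if any of them held the motif. The sequences are those of the 3 most abundant members with the ISRE core, and of the most abundant with the GAS core alone, read 5′ to 3′ on the gene's strand with the matched letters in capitals.

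Bst2, chr8:71537513-71537632, minus strand, 160 to 41 bases before the start, with 2 overlapping ISRE core matches: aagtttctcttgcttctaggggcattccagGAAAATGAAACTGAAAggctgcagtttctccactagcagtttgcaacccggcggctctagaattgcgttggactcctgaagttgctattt

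Ifitm2, chr7:140955992-140956037, minus strand, 76 to 31 bases before the start, with 1 ISRE core match: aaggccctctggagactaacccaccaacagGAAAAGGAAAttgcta

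Isg15, chr4:156200849-156200926, minus strand, 108 to 31 bases before the start, with 3 overlapping ISRE core matches: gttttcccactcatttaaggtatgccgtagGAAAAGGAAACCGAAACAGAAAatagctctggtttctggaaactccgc

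Isg20, chr7:78913321-78913393, plus strand, 103 to 31 bases before the start, with 1 GAS core match: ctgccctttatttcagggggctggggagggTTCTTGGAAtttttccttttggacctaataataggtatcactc

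Matches fell unevenly over the roles. All 4 guanylate-binding protein genes with a promoter sequence (Gbp2, Gbp3, Gbp5, Gbp7) held the ISRE core, as did 4 of 7 IFIT and OAS genes (Ifit1, Ifit3, Oas1a, Oas3) and Rsad2. None of the 4 receptor genes and neither ligand gene held it, and among the 9 STAT and IRF genes it stood in Stat2 and Irf2. The 21 matches began between 14 and 241 bases before the start, and 11 of the 14 members had one within 150 bases. More than 1 match stood in 6 members. Irf2, Oas1a, Gbp5, Gbp7 and Bst2 held both motifs, and in Bst2 the GAS core match, which began 136 bases before the start, overlapped the first ISRE core match at 130. A match to these letters is a description of the sequence and no measure of binding. Members with the ISRE core were not the more abundant ones: the 13 with a level had a median of 18.2 TPM, against 39.7 TPM for the 26 without it in the 250 bases. The pattern over roles depended on the window. With the 50 bases after the start added, the core stood in 2 of 2 sensor genes, against 0 of 2 without them. For IFITM genes it went from 1 of 3 to 2 of 3. Within 150 bases before the start, it stood in 0 of 9 STAT and IRF genes.

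**Figure D1:**
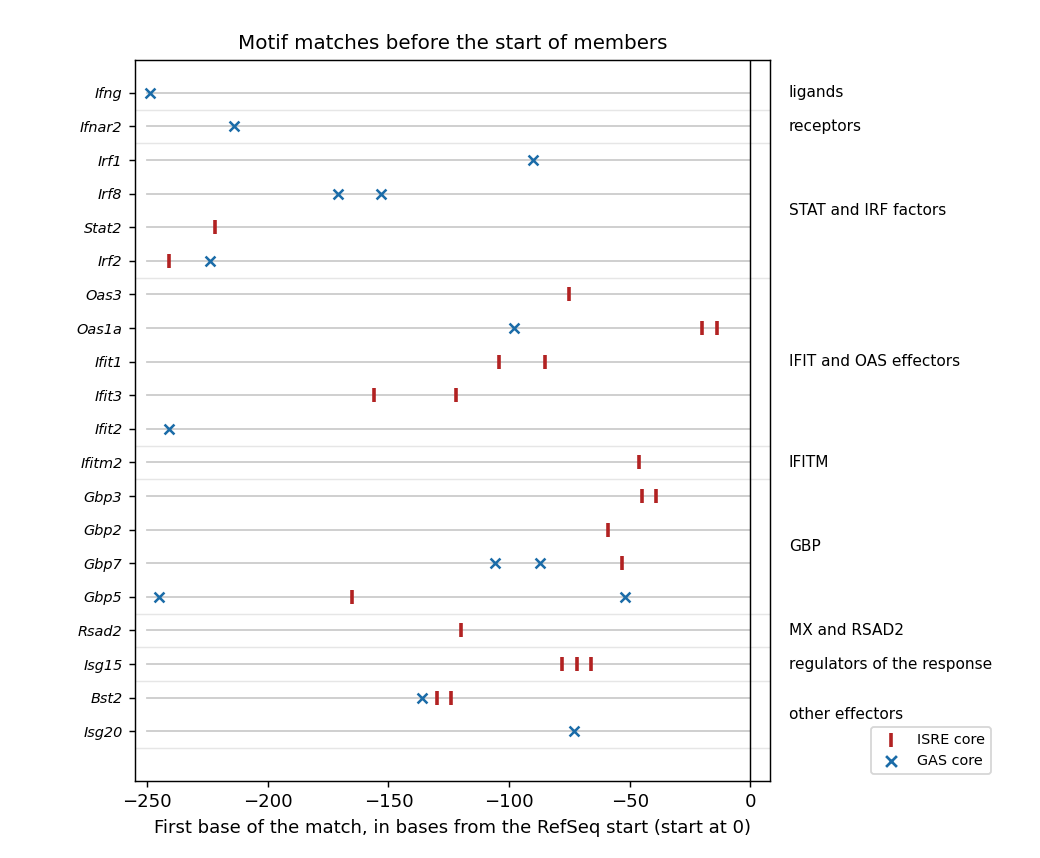
Each row is a member with at least 1 match, grouped by role, and the x axis gives the first base of the match in bases from the RefSeq start. Red bars mark the ISRE core and blue crosses the GAS core. Overlapping red bars stand in Isg15, Bst2, Gbp3 and Oas1a, and the 2 STAT and IRF genes with the ISRE core, Stat2 and Irf2, hold it more than 200 bases from the start.

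The interferons themselves were at or near 0 in whole thymus, whereas their receptors and signal carriers were plentiful. Of 48 matched members, 46 (95.8%) were detected, against 33.1% of all genes and 60.3% of the 21474 protein-coding genes. A level of at least 10 TPM was reached by 36 members and of at least 100 TPM by 10. The median over the 48 was 24.98 TPM, and 34 of the detected members were at or above 15.5 TPM, the median of detected protein-coding genes. The 2 members that were not detected were the 2 ligands.

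Ifng encodes interferon gamma, which activated T cells and natural killer cells secrete. It had 7 fragments and 0.20 TPM in library 1, and 2 fragments and 0.04 TPM in library 2. After scaling to the fragments on genes, the ratio of library 2 to library 1 was 0.223, with an exact 95% interval of 0.0226 to 1.17 that covers counting error only, so no difference was detectable at this depth. Ifnb1, which encodes interferon beta, had 0 fragments in both libraries. A count of 0 allows up to 3 fragments, which corresponds to 0.160 TPM in library 1 and 0.116 TPM in library 2. The members on either side of the detection limit of 1 TPM were Rsad2 at 2.45 and 2.28 TPM and Ifng, so none lay close to it.

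All 4 receptor chains were present. Ifngr1, the chain that binds interferon gamma, had 176 TPM in library 1 and 122 TPM in library 2. Its partner Ifngr2, which brings in JAK2, had 33.0 and 30.3 TPM. Of the type I receptor, Ifnar2 had 58.2 and 44.6 TPM, and Ifnar1 had 40.8 and 37.1 TPM. Ifngr1 thus stood at 149 ± 38.0 TPM (mean ± SD, n = 2), above the other 3 chains in both libraries. All 4 were lower in library 2, as were 8002 of the 14360 detected genes, and the median log2 ratio of the 4 was -0.26. This direction held under 5 of the 6 scalings tried, whereas 1 of the 4, Ifngr2, was higher in CPM, fragment counts scaled to the library's total and not divided by length. Ifnar2, Ifnar1 and Ifngr2 lie within 193 kb of chromosome 16 (91372783 to 91565623, GRCm38), with Il10rb, a chain of the lambda interferon receptor, between Ifnar2 and Ifnar1.

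The factors that carry the signal covered a wide range, with a median of 82.2 TPM over 9 genes. Irf7, the master regulator of type I interferon genes and itself induced by interferon, had 189 and 225 TPM. Irf3, a factor kept ready in the cytoplasm for the first wave of interferon, had 176 and 202 TPM. Irf1, which drives interferon gamma responses, had 136 and 133 TPM. Irf9, the DNA-binding subunit of the STAT complex, followed at 113 and 128 TPM, and Irf8, known for the development of dendritic cells, at 83.8 and 80.7 TPM. Stat2, a STAT subunit of that complex, was much lower at 25.1 and 24.7 TPM. Irf5 had 30.8 and 35.6 TPM, and Irf2, which competes with IRF1 for its sites, had 22.1 and 20.4 TPM. Irf4, a factor of activated lymphocytes, was the lowest of the group at 6.28 and 5.19 TPM. The order of these 9 genes by level was the same in both libraries.

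Sensors of viral nucleic acid were of middle abundance. Zbp1, a sensor of Z-form nucleic acid that can start cell death, had 49.1 and 50.3 TPM. Dhx58, which encodes LGP2, had 20.2 and 21.5 TPM, and Ddx58, which encodes the RNA sensor RIG-I, had 20.3 and 17.9 TPM. Ifih1, which encodes MDA5, a sensor of long double-stranded RNA, had 6.12 and 4.79 TPM. Zbp1 lay above the other 3 in both libraries, and Ifih1 below them.

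Antiviral effectors stood at different levels by family. The 3 IFITM genes, which encode membrane proteins that hinder virus entry, had a median of 211 TPM: Ifitm3 had 259 and 313 TPM. Ifitm2 had 179 and 242 TPM, and Ifitm1 had 32.7 and 48.1 TPM. All 3 were higher in library 2 under each of the 6 scalings. In contrast, the 8 IFIT and OAS genes had a median of 15.7 TPM. OAS enzymes make the messenger that activates RNase L. Among them, Oas3 had 22.5 and 21.4 TPM, Oas2 had 15.5 and 17.6 TPM, and Oas1a had 13.1 and 16.6 TPM. The OAS-like genes Oasl2 (15.4 and 20.3 TPM) and Oasl1 (17.3 and 15.8 TPM) stood at the same height. IFIT proteins bind foreign RNA ends, and their genes were lower: Ifit1 had 8.41 and 10.4 TPM, Ifit2 had 6.19 and 4.35 TPM, and Ifit3 had 5.14 and 6.17 TPM.

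The 4 matched genes of the GBP family of GTPases had a median of 17.4 TPM, and Mx1, Mx2 and Rsad2 a median of 4.60 TPM. Gbp4 had 32.4 and 35.9 TPM, Gbp3 had 14.1 and 22.3 TPM, Gbp2 had 15.8 and 17.5 TPM, and Gbp7 had 4.13 and 3.27 TPM. Gbp3 had 319 and 588 fragments at an effective length of 595 bases. Gbp2 had 1270 and 1953 fragments at 2300 bases. A short coding transcript held 81.2% and 82.7% of the TPM of Gbp3. The place of Gbp3 beside Gbp2, and the family median, thus depend on how the quantifier divided reads between its transcripts. GBPs attack the vacuoles in which microbes hide. Gbp5 and Gbp6 were not found by gene ID, and no level is given for Gbp6. The transcript of Gbp5, matched by its own ID, stood within the deposited gene of Gbp2b, with 2.71 and 2.82 TPM. It made up 96.8% and 96.9% of that gene, so the value listed there is almost wholly that of Gbp5. Mx1 had 4.03 and 5.55 TPM and Mx2 had 3.48 and 5.72 TPM. MX proteins block virus replication, and many laboratory strains, C57BL/6 among them, carry a disrupted Mx1 gene. Rsad2, which encodes the antiviral enzyme viperin, was the lowest detected member at 2.45 and 2.28 TPM.

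The 5 regulators of the response had a median of 57.6 TPM. Trim25, a ubiquitin ligase that acts on RIG-I, had 101 and 63.7 TPM. Ifi35 had 53.3 and 65.9 TPM, and Adar, which edits double-stranded RNA and so hides it from MDA5, had 59.3 and 56.0 TPM. Isg15, a ubiquitin-like modifier, had 34.0 and 40.3 TPM, while Usp18, the enzyme that removes it and dampens receptor signalling, had 21.5 and 28.6 TPM. Trim25 was higher in library 1, and Isg15 and Usp18 were higher in library 2.

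The most abundant members of all were Ifi27, a mitochondrial protein gene on chromosome 12 (103434211 to 103440239), and Bst2 on chromosome 8 (71534255 to 71537456). Ifi27 had 385 and 428 TPM. Bst2, which encodes tetherin, a protein that holds budding viruses at the cell surface and also marks plasmacytoid dendritic cells in mice, had 374 and 367 TPM, and its libraries differed by 1.02-fold. Isg20, an exonuclease gene, had 133 and 153 TPM. Xaf1, known for its part in cell death, had 32.9 and 36.3 TPM, Rtp4 had 15.6 and 15.0 TPM, and Ifi44 had 4.83 and 5.99 TPM. These 6 genes thus ranged from 5.41 to 407 TPM in the mean.

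**Figure D2:**
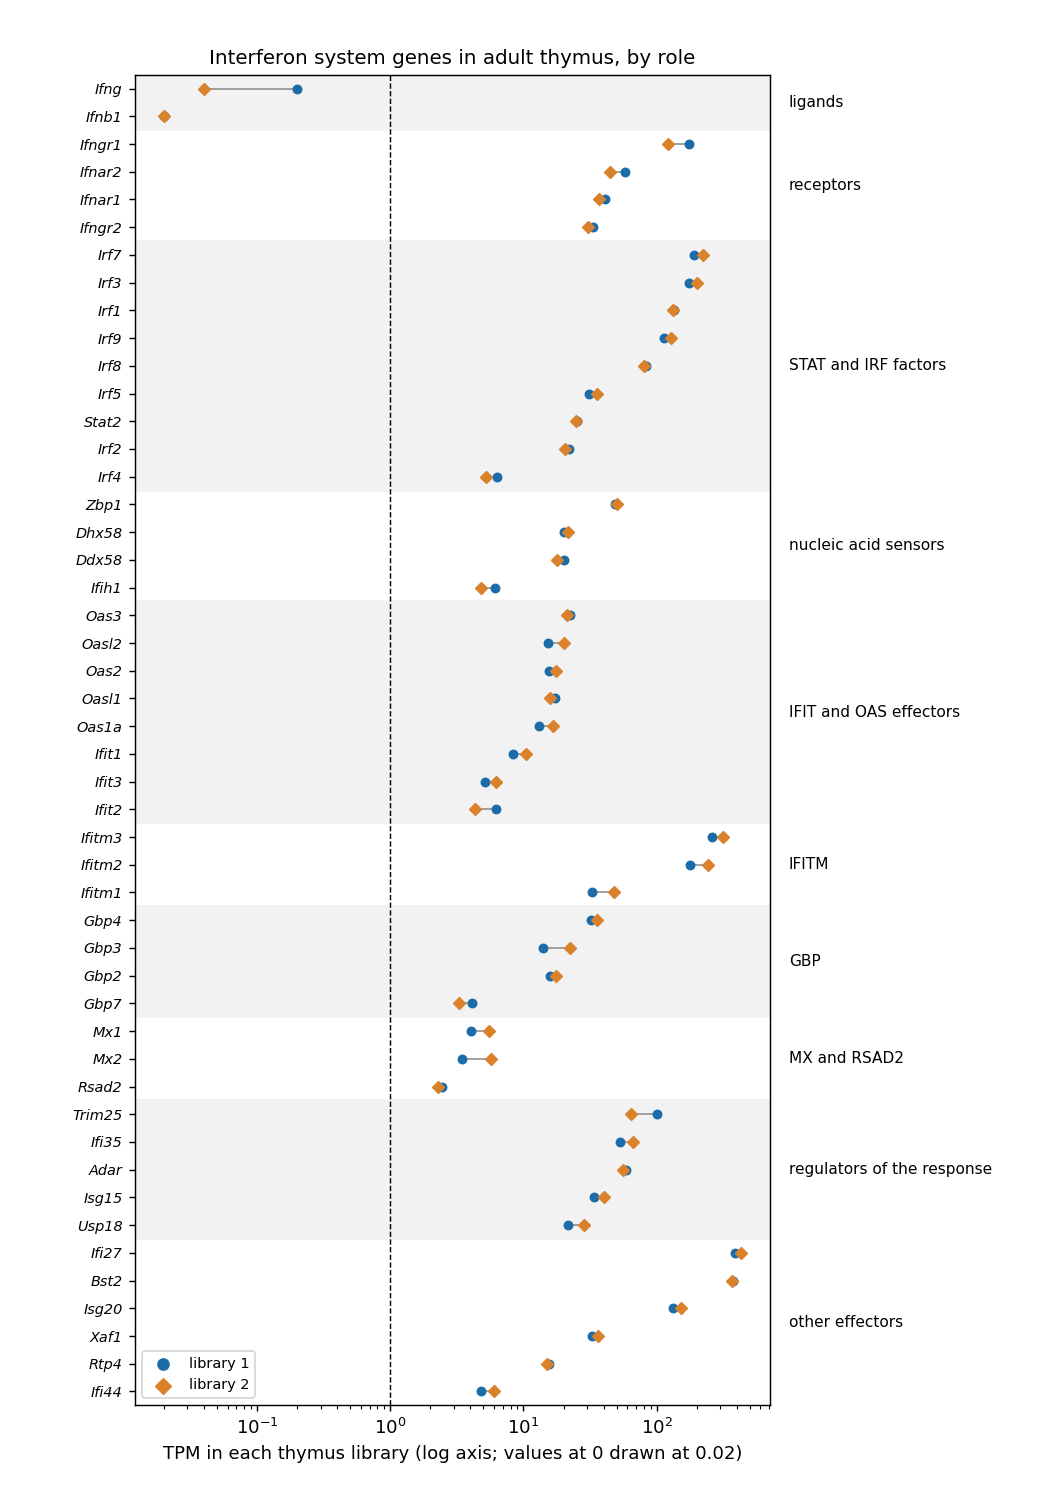
Points give the TPM of each of the 48 matched members in library 1 (blue circles) and library 2 (orange diamonds) on a log axis, grouped by role, and the dashed line marks 1 TPM. Only Ifng and Ifnb1 lie left of the line, and Ifi27, Bst2 and Ifitm3 lie farthest to the right.

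Neighbouring members often belonged to 1 family. With gaps of at most 500 kb, 20 of the 48 matched members fell into 7 clusters on the genome (GRCm38). The cluster with the highest levels, on chromosome 7 (140954837 to 141266481), holds Ifitm2, Ifitm1, Ifitm3 and Irf7, at 40.4 to 286 TPM. Ifit2, Ifit3 and Ifit1 lie within 99.3 kb on chromosome 19 at 5.27 to 9.39 TPM. Oas2, Oas3 and Oas1a lie within 177 kb on chromosome 5 at 14.9 to 21.9 TPM, and Gbp7, Gbp3 and Gbp2 within 108 kb on chromosome 3 at 3.70 to 18.2 TPM.

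Few members differed by 1.5-fold or more between the libraries, which are replicates of 1 group, so these differences carry no test. Mx2 and Gbp3 were higher in library 2, which is 2 of 46 detected members (4.35%), where 6.66% of the 14360 detected genes passed the same limit. Trim25 alone was lower (2.17%, against 5.86% of all detected genes). Both shares rest on 1 or 2 members, too few to set them apart from those of all genes. Detected members were also more abundant than all detected genes, with medians of 28.3 and 13.6 TPM. At a minimum of 5 TPM, 2 of 42 members passed the limit in either direction, against 8.01% of all genes. Mx2 was 1.64-fold higher and kept this side of the limit under each of the 6 scalings. For Gbp3, at 1.58-fold by TPM, the ratio in CPM was 1.44 (6.57 against 9.46), which is within the limit. For Trim25, which was 1.59-fold higher in library 1 by TPM, the ratio in CPM was 1.24 (167 against 134). The calls of Gbp3 and Trim25 thus ended where levels were not divided by length. Other members passed the limit there: Ifi44 was higher in library 2 by 1.63-fold in CPM, 1.54-fold with TMM and 1.53-fold with DESeq2's size factors. Ifitm1 was 1.56-fold higher in CPM and 1.54-fold higher in TPM rescaled over protein-coding genes.

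For most members, the authors' deposited TPM intervals did not overlap between the libraries. This held for 31 of 46 members (67.4%), against 43.6% of all detected genes. The interval states only how well the quantifier could place the fragments of 1 library, and it narrows as a gene gets more fragments. Among all genes, the share rose to 52.1% at a minimum of 5 TPM, where 28 of 42 members had separate intervals. Of these 42, library 2 was higher in 19 and lower in 9, against 16.8% and 35.3% of all genes. At the minimum of 1 TPM, library 2 was higher in 21 of the 31 members (45.7% of the 46, against 15.6% of all genes). It was lower in 10 (21.7%, against 28% of all genes). With the deposited FPKM bounds, the split was 27 higher and 4 lower, and 26.9% higher and 17.7% lower over all genes. The most abundant of the 21 by TPM were Ifi27, Ifitm3, Ifitm2, Irf7, Irf3, Isg20 and Irf9. The 10 were the 4 receptor chains, Irf4, Ddx58, Ifih1, Ifit2, Gbp7 and Trim25. In Bst2, Irf1, Irf8, Stat2, Irf2, Adar, Zbp1, Dhx58, Oas3, Oasl1, Gbp2, Ifit3, Ifi44, Rtp4 and Rsad2 the intervals overlapped.

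Members leaned slightly toward library 2. Their median log2 TPM ratio was 0.14, against -0.04 over all detected genes, with 26 members higher and 20 lower. In CPM, 37 were higher and 9 lower, and the median of all genes moved to 0.07. The ratio also went with transcript length: over 10 bins of all detected genes by effective length, its median went from 0.10 at 305 bases to -0.14 at 5758 bases. Relative to genes of the same bin, the members' median was 0.12, with 30 above and 16 below. In the same libraries the macrophage markers summed to 798 and 1039 TPM, cortical epithelial markers to 763 and 1144 TPM, and medullary epithelial markers to 637 and 729 TPM. Neutrophil markers summed to 71.8 and 50.8 TPM and fat markers to 1306 and 933 TPM, lower in library 2. The 7 markers of plasmacytoid dendritic cells summed to 583 and 956 TPM, a sum carried mostly by Ccr9 and Cox6a2. Ccr9 had 426 and 488 TPM, near the thymocyte marker Cd4 at 460 and 446 TPM, and Cox6a2, also a muscle gene, went from 25.3 to 342 TPM. Which cells gave this RNA was not tested, so the sum is no measure of plasmacytoid dendritic cells. The defining marker Siglech had 17.1 and 13.7 TPM, and 4 of the 7 markers were lower in library 2. The part of length and of these cell types in the members' ratios was not tested.

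**Figure D3:**
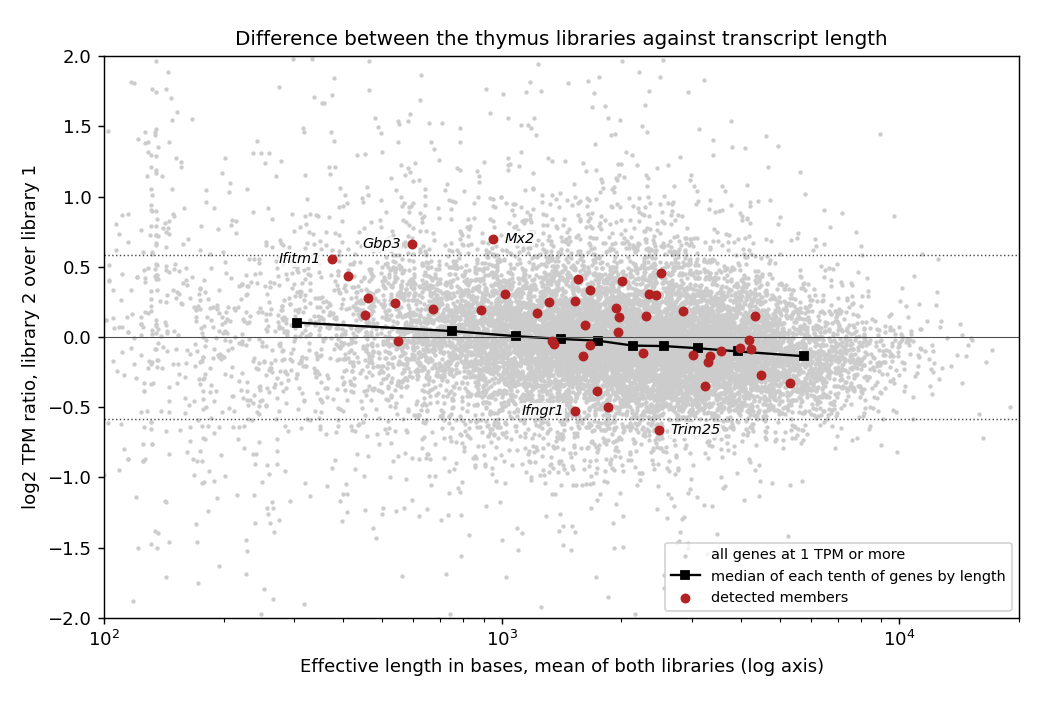
The x axis is the effective length on a log scale and the y axis the log2 TPM ratio of library 2 to library 1. Grey points are detected genes (303 of 14360 lie outside the axes, none of them a member), black squares the medians of the 10 bins by length, red points the 46 detected members, and dotted lines the 1.5-fold limit. Mx2 and Gbp3 lie above the upper line and Trim25 below the lower one, and the black line falls with length.

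Much of the RNA of several members came from transcripts annotated in classes other than protein-coding. Over 44 members whose transcripts could be classed by GENCODE M21 (all detected ones except Irf3 and Mx2), transcripts of non-coding or decay classes held over 50% of the TPM in 7 (15.9%, against 12.6% of protein-coding genes) and over 25% in 13 (29.5%, against 24.3%). These shares are thus near those of other genes. The 7 were Ifih1 (72.7%), Mx1 (69.3%), Ifi27 (65.0%), Irf9 (64.6%), Oasl2 (55.9%), Oas2 (53.5%) and Ddx58 (50.9%). Short entries of the protein-coding class, such as Gbp3-205 with 407 coding bases, counted as coding, so the shares do not measure RNA for the full protein. How the quantifier divides reads between overlapping transcripts of a gene limits such shares, and the part of unspliced RNA in them was not tested.

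Ifi27 and the IRF genes show what this does to a level. The leading transcript of Ifi27, Ifi27-209, a retained intron, had 178 and 215 TPM, and its coding transcripts together had 143 and 141 TPM. On coding transcripts alone, Ifi27 thus ranked behind Bst2, Ifitm3 and Ifitm2. Irf7 was led by the retained intron Irf7-210 with 56.8 and 70.1 TPM, and its coding transcripts summed to 113 and 129 TPM. Irf9 was led by the retained intron Irf9-201 with 67.2 and 74.9 TPM, against 39.7 and 45.7 TPM for its coding transcripts. In Irf8 the coding Irf8-201 (40.6 and 43.3 TPM) and the retained intron Irf8-202 (40.9 and 35.2 TPM) were close, and the leading one differed between the libraries. For Irf3, 90.3% of the TPM lay in transcripts whose IDs are not in M21, so its classes are not known here.

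Ifih1, Mx1 and Mx2 had the lowest coding levels of the detected members. Ifih1 had 1.46 and 1.47 TPM in its coding transcripts, since the retained intron Ifih1-205 led with 3.60 and 2.58 TPM. Coding transcripts of Mx1 had 1.60 and 1.21 TPM, and Mx1-205, a transcript marked for nonsense-mediated decay, had 2.25 and 4.29 TPM. Mx1-201, whose reading frame of 627 residues is the longest annotated for the gene, was listed at 0 in both libraries. The annotation calls Mx2 a polymorphic pseudogene, a gene that is intact in some strains only, and its leading transcript Mx2-203 was a processed transcript with 1.38 and 2.79 TPM. Oasl2 was led by the decay transcript Oasl2-205 with 6.45 and 10.4 TPM, next to the coding Oasl2-201 with 6.38 and 6.80 TPM. Oas2 was led by the retained intron Oas2-204 with 8.24 and 9.48 TPM.

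Transcripts of the members past the fold limit did not all move alike. In Trim25 the leading transcript Trim25-202 went from 74.9 to 41.1 TPM (74.2% and 64.5% of the gene), and Trim25-203 from 19.8 to 12.4 TPM, while Trim25-201 went from 6.23 to 10.3 TPM. In Gbp3 the short Gbp3-205, with 407 coding bases, held 81.2% and 82.7% of the gene at 11.4 and 18.4 TPM, whereas Gbp3-202, which codes for 620 residues, had 2.28 and 2.38 TPM. In Mx2 the processed transcript named above and the coding Mx2-201 (1.05 and 1.67 TPM) were both higher in library 2. The Ifnar2 gene was led by Ifnar2-201, the form with 513 residues, at 46.9% and 49.3% of the gene. The short Ifnar2-204, with 353 coding bases, had 19.8 and 7.07 TPM, and Ifnar2-203, with 248 residues, had 9.56 and 14.7 TPM. Ifnar2-201 thus kept its share more closely than the shorter forms.

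Over the 35 detected members with at least 2 transcripts, the leading one held a median of 62.3% of the gene's TPM, against 66.7% over 9437 protein-coding genes. It held under 50% in Irf3, Irf7, Mx2, Oasl2, Ifnar2, Ifi27 and Ddx58. It held over 95% in Rsad2 (99.0%), Ifngr2 (99.5%), Gbp2 and Gbp7 (100% each). Beside Irf8, it differed between the libraries in Ifit2, where the short Ifit2-202 had 3.92 and 2.14 TPM and the full Ifit2-201 had 2.27 and 2.21 TPM. In Irf4 the forms of 450 and 449 residues changed places, with 4.24 and 2.45 TPM for the first and 2.04 and 2.74 TPM for the other. The leading transcript was not a coding one in 8 of 34 members (23.5%, against 15.6% of protein-coding genes). Adar was led by Adar-203, which codes for 1178 residues and has the length of the interferon-inducible form, with 36.1 and 39.0 TPM. Adar-202, which codes for 930 residues as the constitutive form does, had 2.48 and 2.00 TPM.

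**Figure D4:**
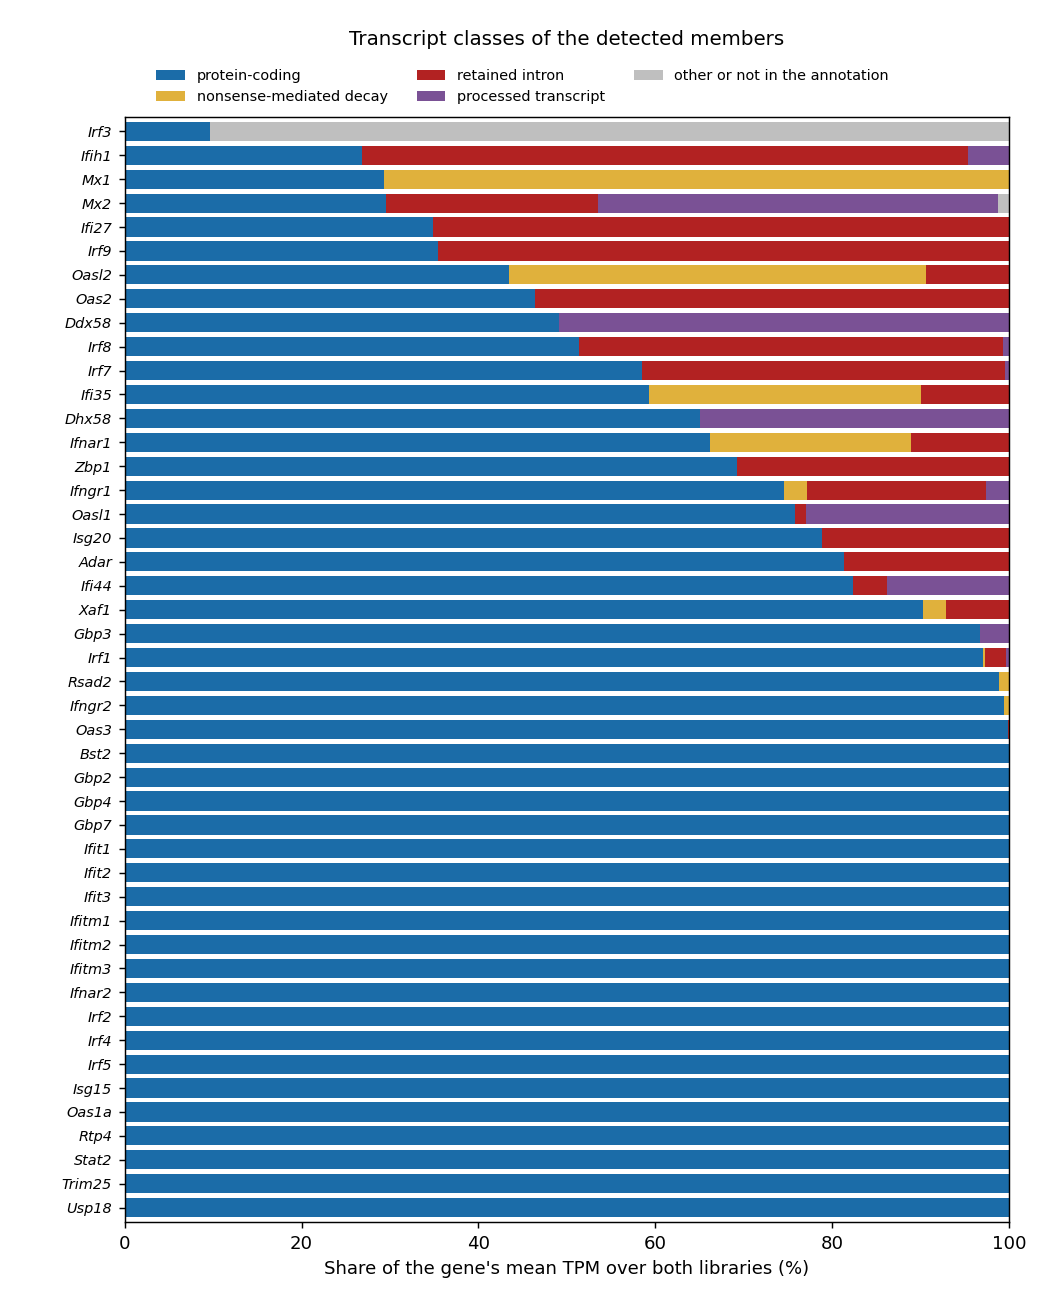
Bars split the mean TPM of each detected member by the class of its transcripts in GENCODE M21, in percent. Genes at the bottom are wholly of the protein-coding class, which includes short coding entries. In Ifih1, Mx1, Mx2, Ifi27 and Irf9 other classes take the larger part, and for Irf3 most of the bar is not in the annotation.

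Some levels rest on reads that another gene can share. Among windows of 76 bases, the read length, over the transcript with the longest coding sequence of each of 48 members, 31 members shared none with the transcripts of another gene and 14 shared under 10%. In Oas1a 47.3% of windows also occurred in Oas1g, in Ifitm2 41.7% occurred elsewhere (33.3% in Gm45717), and in Ifit3 40.7% occurred in Ifit3b. The levels of these 3 members depend on how the quantifier divided shared reads, and the share of windows does not measure the error. The windows came from GENCODE M21, whereas the features were quantified with GENCODE M4. Oas1g had 7.52 and 8.09 TPM and Ifit3b had 1.27 and 1.83 TPM. Exons of 17 members overlap those of another gene, 7 of them on the same strand, and the widest such overlap was that of Ifitm2 with Gm45717 (40.9% of exon bases). On the opposite strand, 16.8% of the exon bases of Adar overlap Chrnb2 and 16.8% of those of Ifi35 overlap Gm11626. The labels call the libraries stranded, but whether the counting used strand is not given in the sources used here.

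Around the members, 88 further genes of the pathway were looked up by name, of which 86 were matched and 66 detected. Of the other 16 ligand genes, none was detected, and 13 were listed at 0 in both libraries, among them all 11 interferon alpha genes with a number. The highest were the lambda interferon genes Ifnl2 (0.64 and 0.47 TPM) and Ifnl3 (0.31 and 0.62 TPM), then Ifnab at 0.14 and 0.02 TPM. Of the lambda receptor, Il10rb had 25.9 ± 2.93 TPM (mean ± SD, n = 2) and Ifnlr1 had 1.63 and 1.98 TPM. Ligands of all 3 interferon types were thus below 1 TPM, whereas the chains of their receptors were above it.

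All 7 JAK-STAT genes of that list were detected. Socs1, the inhibitor of JAK kinases, had 781 and 545 TPM, ahead of Stat3 at 117 and 116 TPM and Jak1 at 81.9 and 86.3 TPM. Among adaptors and kinases, all 9 of which were detected, Irak1 had 152 and 131 TPM, Ikbke had 98.4 and 101 TPM, and Mavs, the adaptor that RIG-I and MDA5 share, had 44.4 and 47.2 TPM. The DNA sensor gene Mb21d1, now named Cgas, had 1.47 and 1.21 TPM. The list of family neighbours was led by Irf2bp2 (94.6 and 56.6 TPM), Irf2bp1 (64.7 and 53.6 TPM) and Gbp8 (46.6 and 53.2 TPM). Of these, Irf2bp2 and Irf2bp1 are genes of IRF2-binding proteins and do not belong to the IRF family. Iigp1 (1.14 and 1.79 TPM), Trim30a (8.91 and 13.8 TPM) and Gbp11 (0.98 and 1.95 TPM) were at least 1.5-fold higher in library 2, and Irf2bp2 was at least 1.5-fold higher in library 1. These are 3 and 1 of the 66 detected genes of the list, where 6.66% and 5.86% of all detected genes passed the same limit.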

How the data were processed

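Both libraries were stranded, paired 76 base libraries of rRNA-depleted polyadenylated RNA, per the labels. The authors deposited gene and transcript tables with expected counts (estimated fragments, not normalised), TPM over all features, posterior mean TPM and isoform percent, per the file headers. The authors' interval bounds were treated as a signal in TPM or FPKM. Features were quantified on mm10 with GENCODE M4, per the text deposited with the files, with quantifier and aligner not given in the sources used here. Spike-ins took 1.49% and 1.48% of fragments. Series-level lists on mm9 were not used.

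GENCODE M21 (GRCm38) gave symbols, classes and coordinates by ID for 42462 of 43346 genes. Members and lists were chosen with earlier results of these data known. Values are given for the 3 highest members of each role, those under 0.1 TPM, past the fold rule, with separate intervals or next to the threshold. Transcript shares are given for leading transcripts under 50%, over 95%, not coding or differing between libraries. Of the wider list, the 3 highest of each subgroup and those past the fold rule are named, except 1 gene that is not reported here. Other genes named, the text on clusters and the transcripts of Adar were chosen after their values were seen. Ratios used a pseudocount of 0.1 and a minimum mean of 1 TPM, with no test. The log2 ratios understate changes of low genes. Protein sequences were not used here, so the planned protein identities were not computed. On simulated counts with counting error only (14360 genes), the 1.5-fold rule found 97% of genes changed 2-fold and called 2.42% of unchanged genes. That simulation held no other spread between libraries, so 2.42% is no error rate for these data. A motif scan found all 500 planted motifs. Scaling factors came from edgeR 4.0.16 (TMM) and DESeq2 1.42.0 (size factors) in R 4.3.3, and the rest used pandas 2.3.3, numpy 2.4.6 and matplotlib 3.10.9 in Python 3.11.15, with intervals from scipy 1.17.1. Alternatives covered scaling, minimum level, fold limit, pseudocount, motif window and each library alone.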

Additional observations from a re-analysis of the deposited data

How the results depend on the processing

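Of 43 alternatives, 38 left the result within its spread or within 1.5 times its count, 5 moved it and 0 reversed it. For the median level and the leading share, the spread was the SD of the single-library values. Leaving out 1 library could thus hardly move them. For the library ratio it was the SD over members, which is wider than their median ratio, so those labels say little. The median level of members moved from 24.98 TPM to 31.5 when TPM was rescaled over protein-coding genes, and CPM without length scaling gave 41.0, a value in another unit. The number of members past the fold limit was 3 at 1.5-fold, 0 at 2-fold (4.6% of all genes) and 14 at a ratio of 5 to 4 (32.5% of all genes), and lay between 2 and 4 under the other scalings, minimums and pseudocount. Members with the ISRE core rose from 14 to 27 when 1 mismatch was allowed, where 34.7% of all genes also matched. With either library alone, the median level was 23.8 to 26.7 TPM, 46 members were detected, the leading share was 59.7% to 63.3%, and 65 to 66 genes of the wider list were detected. On coding transcripts alone, leaving out Irf3, 45 members were detected with a median of 24.9 TPM. That setting and the length-matched ratio were chosen after seeing the data. No paired analysis was possible because the 2 libraries form 1 group.

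Depth limits mainly the ligands, where at most 11 fragments were counted in a library, and Mx2, with 118 and 261 fragments. With 2 libraries, an SD says little about the spread between mice.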

Other observations

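Of the further response genes, several are known for antigen presentation. The immunoproteasome subunit genes Psmb8, Psmb9 and Psmb10, which shape the peptides shown on MHC class I, had 548 and 536 TPM, 206 and 229 TPM, and 199 and 232 TPM. Tap1, which carries these peptides into the endoplasmic reticulum, had 170 and 156 TPM, while Nlrc5, the activator of MHC class I genes, had 39.8 and 41.4 TPM, and Ciita, that of MHC class II genes, had 20.2 and 19.2 TPM. The highest of the 36 further response genes were Ly6e (3184 and 2611 TPM), Ifi27l2a (1228 and 1681 TPM) and Psmb8, and 8 of the 36 reached 100 TPM.

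The interferon gamma-induced GTPases Igtp (48.7 and 48.0 TPM), Ifi47 (27.3 and 30.2 TPM) and Irgm1 (20.4 and 20.7 TPM) stood above Tgtp1 (6.86 and 8.42 TPM) and Iigp1 (1.14 and 1.79 TPM). Among the chemokines that bind CXCR3, Cxcl10 had 80.9 and 73.2 TPM, Cxcl9 had 6.11 and 7.19 TPM, and Cxcl11 had 0.16 and 0.81 TPM. These genes were chosen from the wider list after their values were seen.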
